A study of Mus musculus with 16 samples.

Results

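In mice with an astroglial *Hmgb1* deletion, the effect of the genotype on gene expression in astrocytes was compared, gene by gene, with its effect in the endothelial cells (ECs) of the same mice. All 16 bulk RNA sequencing libraries of the series entered the comparison, and 17493 genes passed the filter on low counts and were tested. The cells came from the cerebral cortex at postnatal day 14 (P14), every mouse was *Hmgb1* flx/flx, and the study's methods state that all pups received tamoxifen in the first days after birth. Mutants (*Hmgb1*ΔAstro) also carried the Aldh1L1-Cre/ERT2 transgene, which places a tamoxifen-activated Cre recombinase under an astroglial promoter, and the controls, labelled wild type, were littermates without Cre. Loss of *Hmgb1* and presence of the transgene with its recombinase thus go together, and their effects on any gene cannot be told apart. Animals of both sexes were used. After removal of myelin and of CD45+ cells, ECs were taken with CD31 beads and astrocytes were then taken from the remaining suspension with ACSA-2 beads. Each of 8 animals, 4 per genotype, gave 1 astrocyte and 1 EC library. The 4 groups were thus wild-type astrocytes, mutant astrocytes, wild-type ECs and mutant ECs, with n = 4 each, and the wild-type animals bear the numbers 5, 9, 19 and 22 and the mutants 2, 13, 18 and 21.

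HMGB1 is an abundant nuclear protein that bends DNA and loosens nucleosomes, and a signal for receptors such as RAGE and TLR4 once it leaves the cell. Astrocytes wrap brain vessels with their endfeet and exchange signals with the ECs that line those vessels. ECs do not use the astroglial promoter that drives Cre, and served as a cell type of the same brain without the recombinase. The quantity compared is the log2 fold change of mutants over wild types in astrocytes minus the log2 fold change in ECs, called the difference. It is positive where mutants stood higher, relative to wild types, in astrocytes than in ECs, and it can come from a change in either cell type. It was fitted with the animal as a block, so that the astrocyte and EC library of 1 mouse were compared with each other. Levels are normalised read counts scaled to library size (CPM), and fold changes within each cell type come from 1 fit of all 4 groups.

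Libraries held 16076010 to 23132312 counted reads. The summed level of 12 astrocyte markers ran from 38005 to 53879 CPM in astrocyte libraries and from 925 to 1559 CPM in EC libraries, and that of 12 EC markers from 15100 to 18261 CPM in EC libraries and from 17.4 to 30.3 CPM in astrocyte libraries, with none of these markers at 0 in every library of a group. A few libraries held more of other cell types. Oligodendrocyte markers summed to 3180 CPM in astrocytes of wild-type animal 9, against 371 to 714 CPM in the other wild-type astrocyte libraries. Choroid plexus markers summed to 1473 CPM in astrocytes and 5043 CPM in ECs of wild-type animal 5, and to 1050 CPM in ECs of mutant animal 21. Each genotype held 2 animals with Y-linked transcripts (wild types 5 and 9, mutants 2 and 13) and 2 without, and where a result turns on these sets its values within them are given, the animals with Y-linked transcripts first.

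Only 3 of the 17493 genes, or 0.0171%, passed the test of the difference at an adjusted p under 0.05 (edgeR quasi-likelihood, Benjamini-Hochberg). *Esr1* and *Cdkn1a* had a positive difference (0.0114% of genes) and *Hmgb1* a negative one (0.00572%). At an unadjusted p under 0.05 stood 535 genes (3.06%), of which 238 had a positive and 297 a negative difference. The adjusted p of every other gene was 1. The median difference over all genes was 0.00, with an SD of 0.45 across genes and a median SE of 0.23. When any 1 of the 8 animals was left out, 1 or 2 genes passed, *Esr1* each time. Within astrocytes 6 genes (0.0343%) passed the edgeR test of mutants against wild types, namely *Esr1*, *Cdkn1a*, *Hmgb1*, *Pcdh19*, *Jmjd8* and *Man2b2*, with 2 or 3 genes when 1 animal was left out, *Esr1* and *Hmgb1* each time. When each cell type was fitted separately, *Esr1* alone passed within astrocytes. Within ECs the count was 0, and 1 without wild-type animal 5. At an unadjusted p under 0.05 stood 1200 genes (6.86%) in astrocytes and 767 (4.38%) in ECs. By contrast, 13619 genes (77.9%) differed between astrocytes and ECs of wild types. Across the genes tested the effects in astrocytes and ECs shared their sign in 59.2%, with Pearson's r = 0.21 and Spearman's rho = 0.23, as a description over genes that share the same 8 animals.

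**Figure D1:**
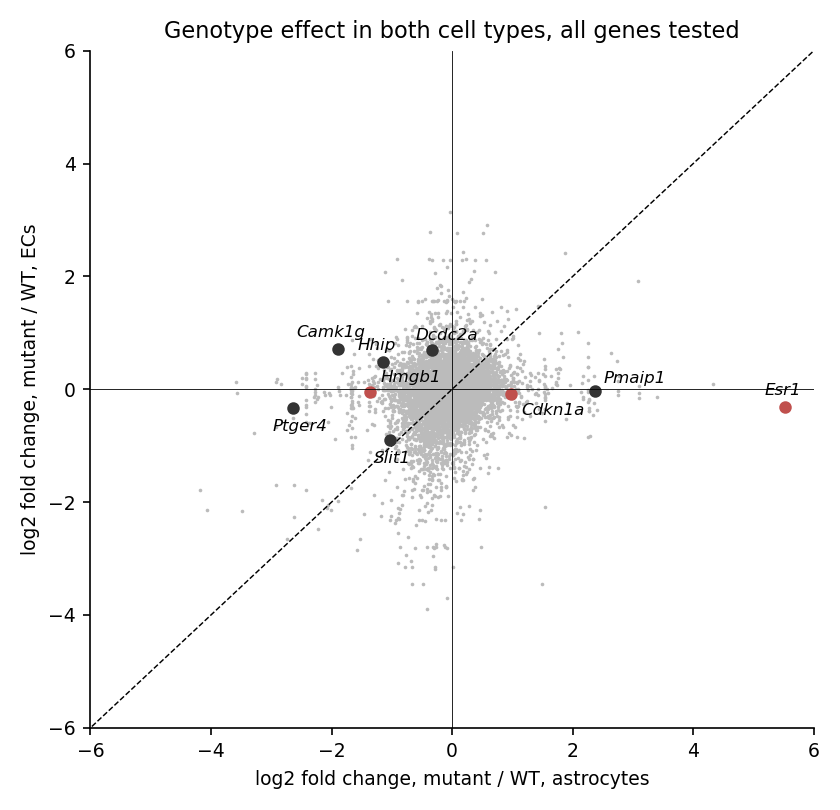
Log2 fold change of mutants over wild types in astrocytes (horizontal) and in ECs (vertical) for all 17493 genes tested in grey, with 9 named genes marked, the 3 that passed the test of the difference in red, and a dashed line where both effects are equal. *Esr1* lies far to the right at 5.52 and -0.32, *Hmgb1* to the left at -1.37 and -0.05, and *Slit1* close to the line at -1.02 and -0.91.

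The targeted gene, *Hmgb1* (ENSMUSG00000066551.13), lies on the minus strand of chromosome 5 of GRCm39, at 148983445 to 149121815. In wild-type astrocytes it stood at 91.0, 92.4, 128.4 and 121.2 CPM in animals 5, 9, 19 and 22, and in mutant astrocytes at 35.5, 40.8, 41.9 and 51.8 CPM in animals 2, 13, 18 and 21. All 4 mutant astrocyte libraries thus lay below all wild-type ones, while none reached 0. In ECs of the same wild types it stood at 172.4, 186.4, 188.6 and 200.8 CPM, and in ECs of the same mutants at 173.1, 191.9, 179.0 and 174.0 CPM, and these groups overlapped. The mean went from 108.3 ± 19.4 to 42.5 ± 6.82 CPM in astrocytes (SD, n = 4) and from 187.0 ± 11.6 to 179.5 ± 8.66 CPM in ECs. The effect was -1.37 (SE 0.12) in astrocytes and -0.05 (SE 0.12) in ECs, and the difference was -1.32 (SE 0.15, 95% interval -1.64 to -0.99, edgeR adjusted p = 0.0286). Within 1 animal, log2(CPM + 1) in astrocytes minus that in ECs was -1.01 to -0.55 in wild types and -2.25 to -1.73 in mutants, without overlap (exact two-sided permutation p = 0.0286, the smallest that 4 against 4 animals can give). Within the sets the difference was -1.32 and -1.30. Leaving out any 1 animal other than mutant 21 took the adjusted p of *Hmgb1* above 0.05, to between 0.0519 and 0.174, with the difference itself between -1.42 and -1.23 over all 8 omissions. In these bulk libraries a lower *Hmgb1* level in every astrocyte and a loss in some astrocytes cannot be told apart. The annotation places 6 genes on the same strand and 8 on the opposite strand within the span of *Hmgb1*, and the strand setting of the counting is not stated.

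**Figure D2:**
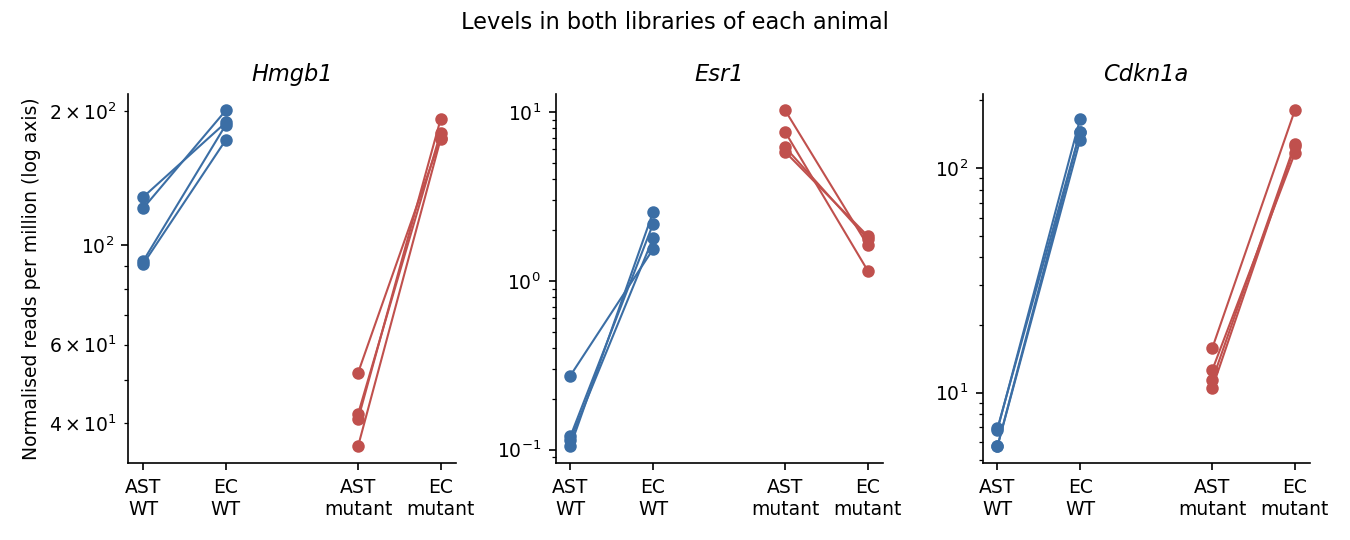
Normalised read counts (CPM) on a log axis in the astrocyte (AST) and EC library of each animal for *Hmgb1*, *Esr1* and *Cdkn1a*, with a line joining both libraries of 1 animal, wild types (WT) in blue and mutants in red. Mutant astrocytes sit below wild-type astrocytes for *Hmgb1* (35.5 to 51.8 against 91.0 to 128.4) and above them for *Esr1* and *Cdkn1a*, while the EC libraries of both genotypes overlap for all 3 genes.

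*Esr1* (ENSMUSG00000019768.17; chromosome 10, 4561593 to 4955626, plus strand), which encodes oestrogen receptor alpha, had the difference with the smallest p. In the order of animals above, it stood at 0.275, 0.120, 0.115 and 0.105 CPM in wild-type and at 7.61, 6.18, 10.2 and 5.8 CPM in mutant astrocytes. Every mutant astrocyte library was far above every wild-type one. Wild-type ECs held 1.54, 2.16, 1.79 and 2.54 CPM and mutant ECs 1.15, 1.77, 1.62 and 1.84 CPM, and these overlapped. In wild types *Esr1* was thus mainly an EC transcript, and in mutants the order was turned, with 7.45 ± 2.00 CPM in astrocytes and 1.60 ± 0.31 CPM in ECs. Mutant astrocytes had 595 *Esr1* reads and wild-type astrocytes 11, a ratio scaled for library size of 47.9 with a 95% counting interval of 26.6 to 96.5, which covers counting error only. The difference was 5.81 (SE 0.48, 95% interval 4.74 to 6.88, edgeR adjusted p = 0.00492), from a log2 fold change of 5.52 (SE 0.34) in astrocytes and -0.32 (SE 0.26) in ECs. Within 1 animal, log2(CPM + 1) in astrocytes minus ECs was -1.68 to -0.99 in wild types and 1.26 to 2.10 in mutants (exact two-sided permutation p = 0.0286). *Esr1* was named for its small edgeR p in this same contrast, so the permutation p is no separate support. Such groups did not overlap in 2.73% of all genes. The adjusted p was under 0.05 without any 1 of the 8 animals. The mutants alone carry the Cre/ERT2 transgene, whose ERT2 part is a modified ligand-binding domain of an oestrogen receptor, and counts per gene do not show where along *Esr1* the reads lie, so reads from the transgene and from the gene itself cannot be told apart.

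No other steroid or nuclear receptor passed the test. Of 23 steroid and nuclear receptors listed, 21 were tested, and 9 had a positive and 12 a negative difference with a median of -0.05 (0.06 and -0.08 by set). At an unadjusted p under 0.05, where 3.06% of all genes stood, were 2 of them, *Esr1* included. The second was *Gper1*, a membrane G protein-coupled receptor for oestrogen, with a difference of -0.80 (SE 0.23), from 18 to 12.7 CPM in astrocytes and from 41.1 to 48.3 CPM in ECs. Within 1 animal the log2 level of *Gper1* in astrocytes minus ECs was -1.41 to -0.86 in wild types and -2.48 to -1.41 in mutants. *Pgr* and *Greb1*, textbook targets of oestrogen receptor alpha looked up after the values of *Esr1* had been seen, had differences of -1.03 (SE 0.84, 95% interval -2.90 to 0.85) and 0.43 (SE 0.41, -0.48 to 1.34). In astrocytes *Greb1* was at 6.98 and 10.998 CPM, an effect of 0.64 (SE 0.23, edgeR adjusted p = 0.601), and *Pgr* at 5.94 and 5.19 CPM, an effect of -0.21 (SE 0.46). *Aldh1l1*, whose promoter drives Cre, had a difference of -0.02 (SE 0.30).

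*Cdkn1a* (ENSMUSG00000023067.15; chromosome 17, 29309936 to 29319701, plus strand) encodes p21, an inhibitor of cyclin-dependent kinases and a target of p53. It stood at 5.77, 6.84, 6.93 and 5.76 CPM in wild-type astrocytes and at 10.4, 15.8, 12.6 and 11.3 CPM in mutant astrocytes, in the order of animals above, with no overlap. In ECs, where it was far more abundant, it stood at 133.4, 165.4, 145.2 and 144.7 CPM in wild types and at 124.9, 180.6, 116.3 and 127.6 CPM in mutants, and mutant animal 13 was the highest while the other mutants were the lowest. The difference was 1.06 (SE 0.12, 95% interval 0.79 to 1.33, edgeR adjusted p = 0.0286), from 0.97 (SE 0.15) in astrocytes and -0.09 (SE 0.14) in ECs. Within 1 animal it was -4.43 to -4.20 in wild types and -3.46 to -3.11 in mutants on the log2(CPM + 1) scale (exact two-sided permutation p = 0.0286). *Cdkn1a* was named for its small edgeR p in this same contrast, so the permutation p is no separate support. Such groups did not overlap in 2.73% of all genes. The call was lost when any 1 of the 8 animals was left out (adjusted p of 0.0984 to 0.174) without the animal block (0.52), by limma-voom with the block (0.102) and within the sets (0.914 and 0.331), while the value stayed between 0.97 and 1.15 over its 18 alternatives.

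Of the 31 p53 targets tested, 23 had a positive difference and 8 a negative one, with a median of 0.11 against 0.00 for all genes, and only *Cdkn1a* passed. At an unadjusted p under 0.05 stood 4 members, all positive, where 1.36% of all genes stood. The 4 include *Cdkn1a* itself, and the list was chosen with earlier results of these data known, so the count is no separate support for *Cdkn1a*. *Pmaip1*, which encodes the apoptosis inducer NOXA, had a difference of 2.39 (SE 0.62) that rests on 5 reads in the wild-type and 32 in the mutant astrocyte libraries, while ECs held 27.1 and 26.3 CPM. *Ccng1*, cyclin G1, stood at 65.0, 66.0, 61.7 and 55.8 CPM in wild-type and at 86.7, 95.3, 78.3 and 80.8 CPM in mutant astrocytes. Its effect was 0.44 in astrocytes and 0.14 in ECs, and the difference 0.30 (SE 0.08). *Psrc1* was the last of the 4, at 0.81 (SE 0.36). *Trp53* itself (0.05, SE 0.09), *Mdm2* (-0.06, SE 0.10) and *Bax* (0.24, SE 0.19) had differences within or near their SE. The median of the list went up to 0.27 without wild-type animal 22 and down to 0.07 without mutant animal 21.

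The study names 6 genes as altered in mutant astrocytes, which it called with DESeq2 at an FDR under 0.05. Since it chose them on these astrocyte libraries, their astrocyte values are no independent evidence here. In the edgeR test within astrocytes none of the 6 passed, with adjusted p from 0.0683 (*Camk1g*) to 0.309 (*Slit1*). Without a filter on low counts *Ptger4* alone of them passed that test. None of the 6 passed the test of the difference. Without a filter on low counts the test of the difference called 11 genes. Among them were *Arhgef28* and *Ptger4* of these 6, and *Hhip*, *Npr1* and *Plac9*, described further on. *Camk1g*, which encodes a kinase activated by calcium and calmodulin, was at 2.20, 1.86, 2.12 and 2.25 CPM in wild-type and at 0.511, 0.389, 0.806 and 0.576 CPM in mutant astrocytes, while EC libraries of both genotypes held 0.0499 to 0.519 CPM. The effects were -1.89 (SE 0.33) and 0.71 (SE 0.41), with a difference of -2.66 (SE 0.59). The EC effect of *Camk1g* rests on 8, 4, 5 and 1 reads in wild types and 8, 8, 5 and 9 reads in mutants, in the order of animals above. *Arhgef28*, a guanine nucleotide exchange factor of small GTPases, stood at 7.03, 12, 7.44 and 8.11 CPM in wild-type and at 2.73, 5.74, 5.44 and 2.66 CPM in mutant astrocytes, with 45.1 to 58.7 CPM in ECs of both genotypes. Its difference was -1.20 (SE 0.30). Both genes were thus separated between genotypes in astrocytes and overlapping in ECs. The study picked both on these astrocyte libraries, so no conclusion is drawn from that separation. The share of all genes separated in this way within 1 cell type was not counted, for these or any other gene.

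*Slit1*, a secreted guidance cue, had negative effects of similar size in both cell types. It stood at 10.7, 11.2, 10.8 and 11.2 CPM in wild-type and at 3.81, 6.18, 5.44 and 6.38 CPM in mutant astrocytes, and in ECs at 0.280, 1.11, 0.714 and 1.10 CPM in wild types and at 0.353, 0.453, 0.471 and 0.403 CPM in mutants. Its effects were -1.02 (SE 0.26) in astrocytes and -0.91 (SE 0.34) in ECs, and the difference -0.20 (SE 0.45). Its sign turned to 0.13 when wild-type animal 5, the lowest wild-type EC library, was left out, and within the animals without Y-linked transcripts. On the log2(CPM + 1) scale the within-animal values did not overlap (2.53 to 3.19 against 1.83 to 2.39), a scale on which the added 1 CPM weighs most at the low EC levels. Astrocyte markers were present in the EC libraries, as given above, and their part in the EC level of *Slit1* was not tested.

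*Ptger4*, which encodes the EP4 receptor of prostaglandin E2, was at 10.7, 15.0, 5.55 and 3.66 CPM in wild-type and at 1.36, 0.875, 2.16 and 1.24 CPM in mutant astrocytes, and in ECs at 0.745 to 3.19 and 0.839 to 2.19 CPM. The spread among wild types was wide, with the animals that had Y-linked transcripts highest in astrocytes, and the difference of -2.25 (SE 0.78) was -3.47 and -1.0 within the sets. *Teddm2* and *Lurap1l*, which were higher in every mutant than in every wild-type astrocyte library, had differences of 1.20 (SE 0.41) and 0.87 (SE 0.29). Their ECs held 1.57 and 1.61 CPM of *Teddm2* and 29.6 and 32.1 CPM of *Lurap1l* in wild types and mutants, so the EC effects were 0.05 and 0.13.

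Up to 12 genes by p were named in each direction, with those that passed. Gene models with only a Gm number, a Rik name or no name were left out of this ranking. Of the 21 genes so named that missed the adjusted threshold, 17 had the larger effect in astrocytes. These genes were picked on the difference itself, and the share over all genes was not counted, so no conclusion is drawn from that count. In 478 genes (2.73%) the within-animal differences of mutants and wild types did not overlap, with mutants above in 278 (1.59%) and below in 200 (1.14%). *Trim68*, which encodes a ubiquitin ligase of the tripartite motif family, had the smallest p in this ranking after the 3 genes that passed. It stood at 10.1, 8.88, 7.96 and 10.1 CPM in wild-type and at 5.74, 6.96, 4.93 and 6.02 CPM in mutant astrocytes, against 11 to 13.4 CPM in wild-type and 12.6 to 14.8 CPM in mutant ECs. The effects were -0.66 (SE 0.12) and 0.11 (SE 0.12), the difference -0.78 (SE 0.14), and DESeq2 with the same block called it (adjusted p = 0.0281). *Pcdh19*, an adhesion molecule of the protocadherin family that passed the test within astrocytes in the fit of all 4 groups (adjusted p = 0.0209) but not in a separate fit of astrocytes, stood at 20.7 to 25.3 CPM in wild-type and 15.1 to 16.7 CPM in mutant astrocytes and at 83.3 to 102.8 CPM in all ECs. Its difference was -0.52 (SE 0.11). *Jmjd8* and *Man2b2* also passed within astrocytes in the fit of all 4 groups, but not in the separate fit or in the difference. Their effects were -0.52 and -0.42 in astrocytes and -0.11 and -0.23 in ECs. Both genes thus had the same sign in both cell types, and for *Man2b2*, a lysosomal mannosidase, the difference was -0.19 (SE 0.09).

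*Hhip* encodes a membrane decoy that binds hedgehog ligands and is itself a target of the pathway. It stood at 17.4, 17.4, 11.1 and 9.53 CPM in wild-type and at 6.36, 5.79, 6.19 and 6.91 CPM in mutant astrocytes, and at 0.898 to 3.32 CPM in wild-type and 2.25 to 4.81 CPM in mutant ECs. The difference was -1.66 (SE 0.41), with effects of -1.15 and 0.48. Of the 14 hedgehog genes tested it alone stood at an unadjusted p under 0.05, and 6 had a positive and 8 a negative difference with a median of -0.02 (-0.0043 and 0.02 by set). *Gli1*, a transcription factor and target of the pathway, had effects of -0.80 in astrocytes and -0.45 in ECs, where it was at 0.761 and 0.559 CPM, and *Ptch1*, the hedgehog receptor, had -0.37 and -0.05, so the differences were -0.36 (SE 0.36) and -0.31 (SE 0.16).

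*Lgals3bp*, a secreted glycoprotein that binds galectin-3, had a mean of 66.2 CPM in wild-type and 44.1 CPM in mutant astrocytes and of 58.4 and 59.1 CPM in ECs, with a difference of -0.60 (SE 0.14). *Plac9* was at 42.3 and 25.6 CPM in astrocytes and at 40.1 and 47.1 CPM in ECs, and its groups overlapped within each cell type but not in the within-animal differences (-0.34 to 0.44 in wild types, -1.22 to -0.69 in mutants). *Aacs*, acetoacetyl-CoA synthetase, which feeds ketone bodies into lipid synthesis, was at 102.8 and 86.5 CPM in astrocytes and at 16.4 and 18 CPM in ECs, a difference of -0.42 (SE 0.10). On the positive side, *Ppp1r18*, an actin-binding partner of protein phosphatase 1, went from 8.11 to 10.9 CPM in astrocytes and from 82.4 to 75.5 CPM in ECs (0.51, SE 0.11). *Rab27b*, a GTPase of secretory vesicles, was at 1.30 and 3.14 CPM in astrocytes and 0.664 and 0.569 CPM in ECs (1.42, SE 0.36). *Nxn*, the redox protein nucleoredoxin, was at 48.0 and 60.7 CPM in astrocytes and 125.3 and 113.0 CPM in ECs (0.45, SE 0.12). *Igfbp4*, an insulin-like growth factor binding protein, was at 44.7 and 55.7 CPM in astrocytes and at 321.7 and 278.7 CPM in ECs (0.51, SE 0.14). *Niban2* was above wild types in all mutant astrocytes (27.4 to 29.5 against 20.5 to 24.8 CPM) and below them in all mutant ECs (245.7 to 278.0 against 278.7 to 299.4 CPM), with a difference of 0.43 (SE 0.10). *Lgals2*, galectin-2, was under 1 CPM on average in all 4 groups.

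**Figure D3:**
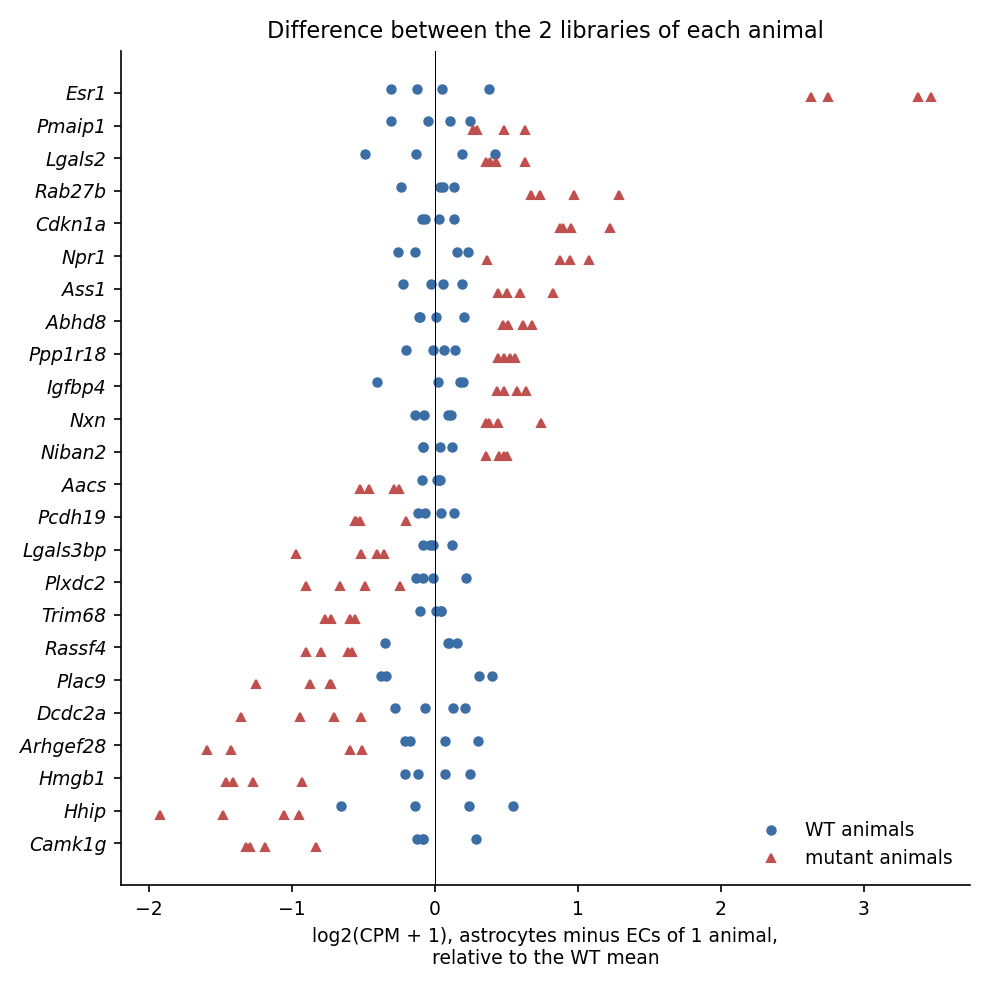
For the 12 genes with the smallest p in each direction (Gm numbers, Rik names and unnamed models left out), log2(CPM + 1) in the astrocyte library minus that in the EC library of the same animal, shown relative to the mean of the 4 wild-type animals (blue circles) with the 4 mutants as red triangles. Mutants and wild types do not overlap for *Hmgb1*, *Esr1*, *Cdkn1a* and all others shown except *Lgals2*. The genes were chosen by the p of this same difference, so their separation is no separate result. Over all genes 2.73% did not overlap.

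In 9 genes (0.0514%) the effects had opposite signs in astrocytes and ECs, each with an unadjusted p under 0.05. Of all genes 6.86% stood under that p in astrocytes and 4.38% in ECs. Those described here and in the next paragraph did not pass the adjusted threshold within either cell type. They were picked by these same p values, so their separation between genotypes is no separate result. *Abhd8*, a member of the alpha/beta hydrolase family, stood at 90.0, 82.8, 98.0 and 92.0 CPM in wild-type and at 119.2, 101.3, 110.7 and 104.3 CPM in mutant astrocytes, and at 45.6, 42.1, 40.0 and 43.0 CPM in wild-type and 34.7, 33.2, 33.7 and 35.0 CPM in mutant ECs. Mutants were thus above all wild types in astrocytes and below all of them in ECs. The effects were 0.24 (SE 0.07) and -0.31 (SE 0.07), with a difference of 0.55 (SE 0.11), and DESeq2 with the block called it (adjusted p = 0.0271). *Npr1*, the guanylate cyclase receptor for atrial natriuretic peptide, stood at 3.04 to 4.62 CPM in wild-type and 4.43 to 6.54 CPM in mutant astrocytes, and at 57.8 to 72.8 CPM in wild-type and 44.7 to 54.9 CPM in mutant ECs. Its difference was 0.90 (SE 0.20). *Golm1*, a Golgi membrane protein, had effects of 0.24 and -0.20 and a difference of 0.44 (SE 0.13).

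The reverse order, lower in mutant astrocytes and higher in mutant ECs, was seen in *Rassf4*, *Ripor2* and *Celf2*. *Rassf4*, a Ras association domain protein, stood at 9.29, 11.9, 9.62 and 9.42 CPM in wild-type and 7.84, 6.62, 6.80 and 8.90 CPM in mutant astrocytes, and at 18.3 to 25.8 CPM in wild-type and 22.5 to 32.3 CPM in mutant ECs. Its effects were -0.44 and 0.37 and its difference -0.81 (SE 0.16), with -1.05 and -0.55 within the sets. *Ripor2*, an inhibitor of a small GTPase, stood at 30.5 to 37.3 CPM in wild-type and 21.3 to 28.1 CPM in mutant astrocytes, and at 4.28 to 5.64 CPM in wild-type and 5.83 to 9.02 CPM in mutant ECs, without overlap in either cell type. Its difference was -0.93 (SE 0.25). *Celf2*, an RNA-binding splicing regulator, had effects of -0.15 and 0.23.

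*Dcdc2a*, *Ass1* and *Plxdc2* had the larger effect in ECs. *Dcdc2a*, a microtubule-binding protein of the doublecortin family, stood at 7.17, 5.67, 5.77 and 7.03 CPM in wild-type and at 11.7, 8.61, 7.58 and 13.4 CPM in mutant ECs, without overlap, while in astrocytes it stood at 16.7 to 19.98 and 13 to 17 CPM. Its effects were 0.70 (SE 0.16) in ECs and -0.33 (SE 0.16) in astrocytes, and its difference -1.0 (SE 0.22). *Ass1*, argininosuccinate synthase, which regenerates the arginine used for nitric oxide, had a mean of 13 CPM in wild-type and 9.22 CPM in mutant ECs and of 12.9 and 14.1 CPM in astrocytes, with a difference of 0.61 (SE 0.16). *Plxdc2*, a plexin domain receptor, was at 42.2 and 58.4 CPM in ECs and at 71.6 and 64.7 CPM in astrocytes (-0.62, SE 0.15).

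Gene lists are described by the number of tested members on either side of 0 and by their median, without a test of the list, and over all genes 50.3% of differences were positive and 49.7% negative. An unadjusted p under 0.05 was reached by 3.06% of all genes. Genes of cholesterol synthesis, a pathway in which astrocytes are the main producers of the brain, had the lowest median of any pathway list apart from the genes that the study names, at -0.31. Of 25 members tested 24 had a negative difference, and none passed the adjusted threshold. In astrocytes all 25 had a negative effect, with a median of -0.27, and in ECs 17 had a positive and 8 a negative one, with a median of 0.05. At an unadjusted p under 0.05 stood 8 members, all negative, where 1.7% of all genes stood. All members were measured in the same 8 animals, so these counts are not separate results.

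*Stard4*, a sterol carrier and the member with the smallest p, had a difference of -0.49 (SE 0.14). It stood at 71.4 to 74.6 CPM in wild-type and 51.4 to 62.0 CPM in mutant astrocytes, and in ECs at 156.7 to 166.6 and 158.8 to 209.1 CPM. *Srebf2*, the transcription factor of sterol synthesis, had effects of -0.33 and 0.02 and a difference of -0.36 (SE 0.12). *Sqle*, *Sc5d*, *Fdft1* and *Dhcr7*, which encode enzymes of the pathway, were also among the members at an unadjusted p under 0.05, with differences of -0.46 to -0.30.

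Relative to the wild-type mean of each gene, the median of the 25 genes was -0.36, -0.27, -0.13 and -0.21 in the astrocytes of mutants 2, 13, 18 and 21 and -0.08 to 0.04 in those of wild types. In ECs it was -0.09 to 0.20 in mutants and -0.28 to 0.11 in wild types, and the lowest of these was animal 5, the library with the most choroid plexus markers. Without that animal the median difference was -0.18, and within the sets it was -0.40 and -0.19, so that the direction held while the size depended on wild-type animal 5. The within-animal medians of animals 2, 13, 18 and 21 were -0.40, -0.16, -0.29 and -0.18, and those of wild types 5, 9, 19 and 22 were 0.28, -0.15, -0.08 and -0.08. Mutants thus lay below all wild types, but mutant 13 (-0.161) only just below wild type 9 (-0.148). The share of lists separated in this way was not counted.

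**Figure D4:**
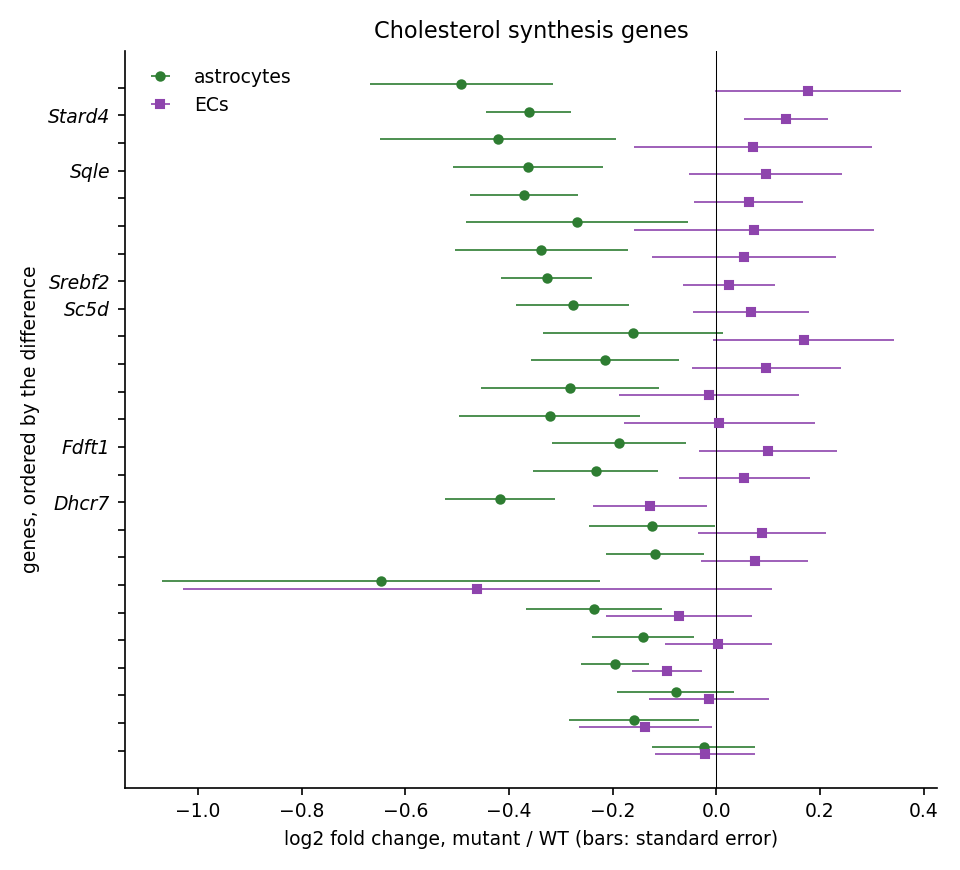
Log2 fold change of mutants over wild types in astrocytes (green circles) and in ECs (purple squares) for each of the 25 cholesterol synthesis genes, ordered by the difference between cell types, with bars for 1 standard error and the 6 genes described in the text labelled. All astrocyte values lie below 0 with a median of -0.27, and the EC values lie on both sides of 0 with a median of 0.05.

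Lists of protein synthesis and energy metabolism lay on the other side of 0. All 36 ribosomal protein genes tested had a positive difference, from 0.14 to 0.34 with a median of 0.23, yet none stood at an unadjusted p under 0.05, as each had an SE near its own value. *Rps14*, for example, went from 169.1 to 201.1 CPM in astrocytes and from 714.3 to 662.1 CPM in ECs, a difference of 0.34 (SE 0.25). These genes varied together from animal to animal, and their median within-animal value was -0.17, -0.50, 0.43 and 0.24 in wild types 5, 9, 19 and 22 and 0.13, -0.15, 0.47 and 0.60 in mutants 2, 13, 18 and 21, so that the genotypes overlapped over all animals. The animals without Y-linked transcripts were higher in both genotypes, with list medians of 0.26 and 0.18 by set. Within each set both mutants lay above both wild types, by narrow margins (-0.15 against -0.17, and 0.47 against 0.43). The split by set was chosen after seeing the data and leaves 2 animals per genotype, so no conclusion is drawn from that order. Without wild-type animal 9 the list median was 0.07. Nuclear genes of oxidative phosphorylation had 29 of 30 members positive and a median of 0.14, or 0.29 and 0.02 by set, and 0 at an unadjusted p under 0.05. Glycolysis and lactate genes had 20 of 22 positive with a median of 0.11, and *Pfkl*, the liver-type phosphofructokinase, alone stood at an unadjusted p under 0.05 (0.27, SE 0.11), with 111.5 and 146.6 CPM in astrocytes. Of 13 mitochondrially encoded genes tested, 11 were positive with a median of 0.08 (-0.04 to 0.22 over the alternatives) and none stood at an unadjusted p under 0.05.

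Immediate early and dissociation stress genes, which respond within minutes to handling of the tissue, had 27 of 31 members with a positive difference and a median of 0.19. They had negative effects in most members in both cell types, 24 in astrocytes (median -0.15) and 30 in ECs (median -0.35). *Ier5* (0.32, SE 0.12) and *Hspb1*, a small heat shock protein (0.73, SE 0.33), stood at an unadjusted p under 0.05. The list median was -0.05 without wild-type animal 9 and 0.02 without mutant animal 21, and within the sets it was 0.35 and 0.02. Its direction thus turned when 1 animal was left out. Genes of the motile cilium axoneme had negative effects in both cell types, in 36 of 37 members in astrocytes (median -0.46) and in 34 in ECs (median -0.72). The difference was positive in 25 members with a median of 0.14, and *Dnai1*, a dynein intermediate chain, alone stood at an unadjusted p under 0.05 (0.64, SE 0.21). *Foxj1*, the transcription factor of motile cilia, was at 91.7 and 72.1 CPM in astrocytes and at 6.62 and 2.94 CPM in ECs. Markers of ependyma, the ciliated lining of the ventricles, summed to 171.6 to 284.5 CPM in wild-type and 147.8 to 208.3 CPM in mutant astrocytes and to 11.6 to 32 and 14.7 to 16.2 CPM in ECs, and their part in the cilium genes was not tested. The median difference of the cilium genes was 0.40 and -0.18 within the sets and -0.01 without wild-type animal 22. Cell cycle genes had 25 of 35 members positive with a median of 0.08 and 0 at an unadjusted p under 0.05, and the median turned from -0.13 to 0.36 between the sets.

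**Figure D5:**
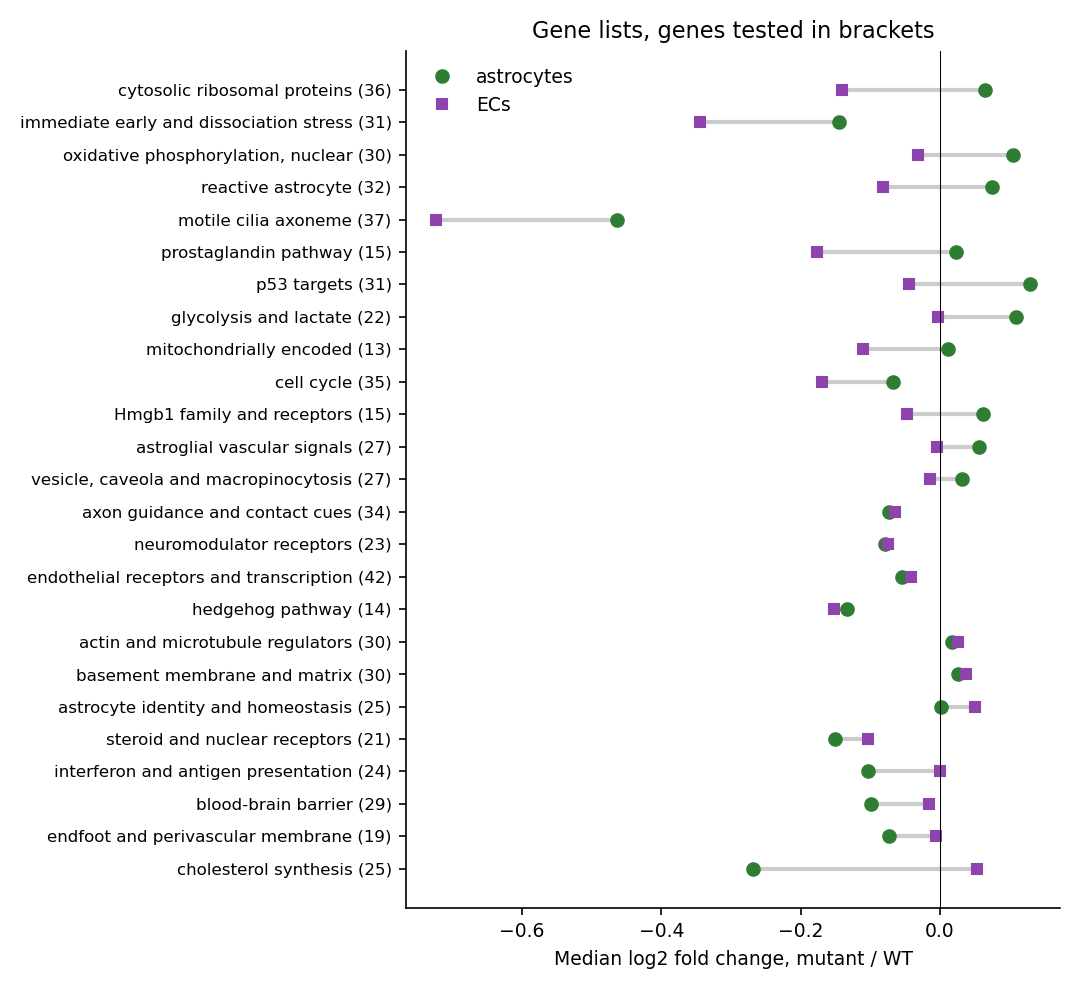
Median log2 fold change of mutants over wild types in astrocytes (green circles) and in ECs (purple squares) for 25 pathway lists, ordered by the median difference, with the number of genes tested in brackets. Cholesterol synthesis at the lower end has medians of -0.27 and 0.05 and ribosomal proteins at the upper end of 0.07 and -0.14, while the cilium genes lie below 0 in both cell types (-0.46 and -0.72).

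No member of the lists of astrocyte function passed the adjusted threshold. Of 19 endfoot and perivascular membrane genes, 7 were positive and 12 negative with a median of -0.06 (-0.18 to 0.04 over the alternatives) and 0 at an unadjusted p under 0.05. *Gja1*, which encodes connexin 43, was at 2768 and 2273 CPM in astrocytes, with a difference of -0.30 (SE 0.19), and *Aqp4*, the water channel of endfeet, was at 2393 and 2291 CPM, with 0.11 (SE 0.29). Of 25 astrocyte identity and homeostasis genes, 9 were positive with a median of -0.04, which was 0.15 and -0.19 by set, and 0 at an unadjusted p under 0.05. Reactive astrocyte genes had 20 of 32 positive with a median of 0.14. At an unadjusted p under 0.05, where 3.06% of all genes stood, were 4 members in both directions. Of these, *Osmr*, the oncostatin M receptor, was at 52.6 and 74.8 CPM in astrocytes and 203.7 and 204.8 CPM in ECs (0.45, SE 0.16), *Cd109* had -0.88 (SE 0.38), and *Lcn2*, lipocalin 2, had 2.68 (SE 1.12) at means under 1 CPM in astrocytes, with the sign turned to -1.16 without mutant animal 21. *Hspb1*, given above, is on this list as well. *Gfap*, the intermediate filament of astrocytes, was at 1050 and 1713 CPM in astrocytes and at 47.2 and 54.9 CPM in ECs, with effects of 0.69 (SE 0.21) and 0.23 (SE 0.22) and a difference of 0.44 (SE 0.27).

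Signals between astrocytes and vessels had 16 of 27 members positive with a median of 0.03 (0.21 and -0.06 by set), and *Pdgfa* alone stood at an unadjusted p under 0.05 (0.36, SE 0.15). *Angpt1*, a ligand of the endothelial receptor TIE2, was at 44.1 and 34.8 CPM in astrocytes (-0.45, SE 0.22). Axon guidance and contact cues had 18 of 34 positive with a median of 0.02 (-0.02 and 0.01 by set), with *Plxnd1* (0.38, SE 0.13) and *Sema6d* (-0.42, SE 0.18) at an unadjusted p under 0.05. Actin and microtubule regulators had 13 of 30 positive with a median of -0.02 (-0.09 and 0.03 by set) and *Arhgef28* alone at an unadjusted p under 0.05. The prostaglandin pathway had 10 of 15 positive with a median of 0.12 and *Ptger4* alone, and neuromodulator receptors had 13 of 23 positive with a median of 0.02 (0.18 and -0.09 by set) and *Adora2a*, an adenosine receptor, alone (0.59, SE 0.22). *Adora2a* stood at 12.8, 15.2, 13.2 and 16.5 CPM in wild-type and at 28.3, 22.4, 21.8 and 22.7 CPM in mutant astrocytes and at 77.0 to 122.8 CPM in all ECs. Among the 15 genes tested of the HMGB1 family and its receptors, 9 were positive with a median of 0.04. Apart from *Hmgb1*, only *Hmgb3*, a close relative, stood at an unadjusted p under 0.05 (0.45, SE 0.16), at 30.9 and 40.1 CPM in astrocytes and 33.5 and 31.6 CPM in ECs. *Hmgb2* had 0.32 (SE 0.31).

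Lists of vascular function had few members at an unadjusted p under 0.05, and none passed the adjusted threshold. Endothelial receptors and transcription factors had 20 of 42 members positive with a median of 0.00 (-0.01 and 0.03 by set) and *Fzd4*, the receptor of Norrin, alone (-0.29, SE 0.11). Blood-brain barrier genes had 14 of 29 positive with a median of -0.06 (-0.10 and 0.11 by set), and *Marveld2*, a tight junction protein, alone (-0.77, SE 0.29), at 49.9 and 43.6 CPM in ECs and under 1 CPM in astrocytes. *Slc2a1*, the glucose transporter GLUT1, was at 1580 and 1607 CPM in ECs (-0.18, SE 0.15). Vesicle, caveola and macropinocytosis genes had 15 of 27 positive with a median of 0.03 (0.03 and -0.0059 by set), and basement membrane and matrix genes 13 of 30 with a median of -0.03 (-0.17 and 0.12 by set), each with 0 at an unadjusted p under 0.05. Interferon and antigen presentation genes had 10 of 24 positive with a median of -0.05 and *Irf9* alone (-0.33, SE 0.13). Their median went to 0.23 without wild-type animal 5 and to -0.25 without wild-type animal 22.

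Markers of other cell types also lay to either side of 0. Oligodendrocyte markers had a negative difference in 11 of 12, with a median effect of -0.75 in astrocytes and 0.31 in ECs, beside the high astrocyte library of wild-type animal 9. Relative to the wild-type mean, their median log2(CPM + 1) was 2.53 in that library and -1.62 to -0.09 in the other wild-type astrocytes. In mutant astrocytes it was -0.0055 to 0.80, above those other wild types, so the negative astrocyte effect depended on animal 9. Erythroid markers had a negative difference in 7 of 7 (median -0.38), EC markers in 9 of 12 (median -0.34) with a summed level of at most 30.3 CPM in astrocytes, and oligodendrocyte precursor markers in 7 of 10 (median -0.17). Microglia and macrophage markers had a positive difference in 9 of 12 (median 0.41), fibroblast and meningeal markers in 9 of 10 (median 0.26), ependymal markers in 5 of 6 (median 0.50), pericyte and smooth muscle markers in 8 of 12 (median 0.08) and neuronal markers in 7 of 12 (median 0.09). Astrocyte markers had 5 of 12 positive (median -0.02), choroid plexus markers 3 of 6 (median -0.01) and sex-linked transcripts 2 of 5 (median -0.12). No marker passed the adjusted threshold. The part of these cells in the differences of single genes was not tested, and in bulk libraries fewer cells of a type and less RNA per cell cannot be told apart.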

How the data were processed

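Astrocytes and ECs of 8 mice were profiled by bulk RNA sequencing. The authors trimmed reads with FASTX-toolkit, aligned them to GRCm39 and counted them per gene with STAR 2.7.9a, and the deposited table holds raw counts without normalization (56980 Ensembl identifiers). Neither the annotation release nor the counting's strand setting is stated, and the labels name another library kit than the paper. The submitters' processing notes also name DESeq2. Groups and animal numbers came from the labels, where both libraries of 1 animal share its number, which was therefore the block. Deviations of both libraries from their group means correlated at -0.04 to 0.37 over 9080 genes, with the best match to the own animal in 5 of 8. No pair of libraries was merged, since counts of the 24 pairs within groups differed beyond sampling noise (chi-square per gene of 8.19 to 57.7).

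On the deposited counts the difference was fitted by edgeR 4.0.16 (quasi-likelihood F-test) under R 4.3.3 (TMM, filterByExpr on the 4 groups, animal block, Benjamini-Hochberg over 17493 genes), and the procedure was tested on simulated data. Effects within each cell type came from 4 group means in 1 fit. An exact two-sided permutation test for single genes used the 8 within-animal differences of log2(CPM + 1). Symbols and positions came from the GENCODE annotation of GRCm39, which held 98.7% of the identifiers. Of 98 genes named, 76 overlap another annotated gene.

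The members, the 26 pathway and 12 marker lists and the tests were chosen with earlier results of these data known. Named were *Hmgb1*, the genes that passed filled up to 12 per direction by p, up to 3 members of each pathway list by p, the genes that the study names, and up to 6 genes with opposite effects. Gene models with only a Gm number, a Rik name or no name were left out of the 12 per direction and of the genes with opposite effects. Some genes that this rule takes are not reported here. A few genes were added after their values were seen (*Aldh1l1*, *Pgr*, *Greb1*, *Trp53*, *Hmgb2*, *Aqp4*, *Gja1*, *Gli1*, *Mdm2*, *Bax*, *Psrc1*, *Srebf2*, *Sqle*, *Sc5d*, *Fdft1*, *Dhcr7*, *Jmjd8* and *Man2b2*). Alternatives were DESeq2 1.42.0, limma-voom (limma 3.58.1), no block, RLE factors, no filter, at least 1 CPM in 4 libraries, a term for the set of animals, an offset for length and GC content, a log2 threshold of 1, separate fits of each cell type, leaving out each animal, and, chosen after seeing the data, fits within each set of 4 animals. Replicates are separate animals. Libraries of 16076010 to 23132312 reads set the precision, and genes near 1 CPM rest on few reads.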

Additional observations from a re-analysis of the deposited data

Results flagged for a closer look

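The genotype effect differed between cell types by the test of the difference itself in *Hmgb1* (-1.32), *Esr1* (5.81) and *Cdkn1a* (1.06). In 10 of 106 groups of 4 samples that were looked at, 1 sample lay far from the other 3 by Dixon's criterion, where chance alone gives about 1 in 20. The within-animal difference of log2(CPM + 1), astrocytes minus ECs, was -1.36 in wild-type animal 22 for *Rassf4*, against -0.92 to -0.86 in the other wild types, and 1.63 in the same animal for *Camk1g*, against 1.22 to 1.27. In mutant animal 21 it was -2.25 for *Pcdh19*, against -2.61 to -2.57 in the other mutants, and -1.28 for *Golm1*, against -1.73 to -1.66. For *Rassf4* and *Pcdh19* the sample that stood apart was the one nearest to the other genotype, and for *Camk1g* and *Golm1* the one farthest from it. Oligodendrocyte markers summed to 3180 CPM in astrocytes of wild-type animal 9 (371 to 714 in the others) and to 3406 CPM in ECs of mutant animal 18 (1579 to 1808). Choroid plexus markers summed to 1473 CPM in astrocytes and 5043 CPM in ECs of wild-type animal 5 (11.5 to 78.2 and 10.3 to 252.0 in the others), and to 120.7 and 1050 CPM in those of mutant animal 21 (16.2 to 23.2 and 9.05 to 106.4).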

How the results depend on the processing

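Counts of genes that passed the test of the difference were 3 in the fit reported, 2 without the replicate block, 2 by limma-voom (*Cdkn1a* lost in both), 3 with RLE factors, with at least 1 CPM in 4 libraries, with a term for the set of animals and with the length and GC offset, 5 by DESeq2 with the block (the 3 genes with *Abhd8* and *Trim68*), 11 of 38727 genes without a filter on low counts (the 3 genes with *Arhgef28*, *Ptger4*, *Hhip*, *Npr1*, *Plac9* and others), and 1 or 2 without 1 animal. Within each set of 4 animals it was 0 and 0, with 952 and 879 genes at an unadjusted p under 0.05 by edgeR. *Hmgb1* kept its direction in 18 of 18 alternatives and passed in 9, with adjusted p of 4.48e-12 to 0.356. Without 1 animal its difference was -1.42 to -1.23, and within the sets it was -1.32 and -1.30 at adjusted p of 0.356 and 0.069. *Esr1* passed in 16 of 18 (5.36 to 6.38), all but the fits within the sets, and *Cdkn1a* in 6 of 18, with 1.06 and an adjusted p of 0.52 without the block. *Slit1* turned to 0.13 without wild-type animal 5 (-0.40 to 0.13 without 1 animal) and to 0.13 in animals without Y-linked transcripts, and *Lcn2* to -1.16 without mutant animal 21 (-1.16 to 3.28 without 1 animal) and to -1.41 in animals with them. The prostaglandin median was -0.013 to 0.15 without 1 animal, lowest without mutant animal 13, and the p53 target median 0.065 to 0.27. Genes that passed within astrocytes numbered 1 (*Esr1*) in separate fits of each cell type and 2 to 3 without 1 animal, and within ECs up to 1. The cause of these shifts was not tested. With 4 animals per genotype and a block of 8 animals the residual degrees of freedom were 6, so leaving out animals also lowers what the fit can call, and genes under 1 CPM rest on few reads.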
